A study of Mus musculus with 12 samples.

Results

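The Ces1 cluster lncRNAs are 27 long noncoding RNAs of the 15558 in the deposited table, lying at chr8:95577587-95676870 of mouse genome build mm9. They were chosen by class and position: antisense and intragenic entries within one stretch of chromosome 8 around the Ces1 carboxylesterase genes. The stretch itself was selected on measured values of these same libraries, since its lncRNAs had already stood apart in nuclear against whole-liver RNA, TCPOBOP against PCN in nuclei and female against male nuclei. For those contrasts the values are a description: counts of calls are printed beside the share called over all lncRNAs, and they support nothing, since the choice of the locus had a part in them. The stranded libraries may also have had a part in the choice, so counts from them are a description too. Of the 27, 15 are antisense, all on the plus strand, and 12 are intragenic, all on the minus strand. Each is written here by class and number, as_7306 standing for ncRNA_as_chr8_7306 and intra_7313 for ncRNA_intra_chr8_7313.

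The libraries were made from polyadenylated RNA of livers of outbred CD-1 mice aged 8 weeks, which had been injected either with TCPOBOP, an activator of the receptor CAR, or with PCN, an activator of the receptor PXR. The 12 libraries formed 8 groups. Nuclear RNA was sequenced without strand information from TCPOBOP-treated females at 3 h (3 pools of 3, 4 and 4 livers, experiment G86), from TCPOBOP-treated males at 3 h (3 pools of 4 livers each, experiment G95) and from PCN-treated males at 3 h (1 library of 2 livers, experiment G81). Whole-liver RNA of males, all experiment G81 and 6 livers a library, gave 1 library without strand information (TCPOBOP, 3 h) and 4 with it (TCPOBOP and PCN, each at 6 h and 3 h). Livers were taken at 11 AM for the 3 h groups and at 2 PM for the 6 h groups. Every animal had received an agonist, and vehicle-treated livers are not analysed here.

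Carboxylesterases of the Ces1 family are enzymes of the hepatocyte endoplasmic reticulum that split ester and amide bonds in drugs, environmental chemicals and lipids. In the mouse the family grew by tandem duplication, so that several closely related genes stand side by side. Among them, Ces1d encodes a triacylglycerol hydrolase that takes part in lipoprotein assembly, and Ces1c encodes an esterase that is secreted into plasma. An antisense lncRNA is read from the strand opposite to a gene that it overlaps, and an intragenic lncRNA from within a gene. CAR and PXR pair with the receptor RXR on DNA and switch on genes of drug metabolism in the liver. The functions of the 27 lncRNAs themselves are not described in the sources used here.

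The table pairs no entry with a gene symbol, so the host gene of each lncRNA was not assigned. In the GENCODE annotation of build GRCm38, which was read without converting any coordinate, all 8 Ces1 genes (Ces1a to Ces1h) lie on the minus strand. Of the 13 annotated genes that overlap the stretch from Ces1a to Ces1h, 11 are on the minus strand and 2 on the plus strand. The plus-strand genes are Gm45463, which overlaps Ces1a, and Gm45765, which overlaps Ces1h. The Ces1 transcripts share stretches of sequence. Of the 50-base words of each gene's transcript, 13.4% in Ces1c and 10.8% in Ces1b were also found in another Ces1 gene, against 3.21% in Ces1e and 0.104% in Ces1a. The sharing was mostly between Ces1b and Ces1c, which had 190 such words in common. How the authors' counting placed reads that match more than one of these genes is not given in the sources used here, and levels of single members are uncertain to that extent.

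The promoter windows of Ces1b and Ces1c are printed to show how alike neighbouring genes of this locus can be. They are RefSeq sequences of build GRCm38.p6, each 300 bases long, on the minus strand, at chr8:93079891-93080190 for Ces1b and chr8:93131234-93131533 for Ces1c. Capitals mark the 58 bases that both hold without a mismatch.
Ces1b: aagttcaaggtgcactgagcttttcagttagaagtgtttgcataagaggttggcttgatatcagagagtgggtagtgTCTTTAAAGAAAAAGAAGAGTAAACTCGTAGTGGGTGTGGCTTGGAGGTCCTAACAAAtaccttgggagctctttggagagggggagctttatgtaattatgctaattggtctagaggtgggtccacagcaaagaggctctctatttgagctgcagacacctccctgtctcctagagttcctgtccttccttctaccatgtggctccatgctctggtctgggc
Ces1c: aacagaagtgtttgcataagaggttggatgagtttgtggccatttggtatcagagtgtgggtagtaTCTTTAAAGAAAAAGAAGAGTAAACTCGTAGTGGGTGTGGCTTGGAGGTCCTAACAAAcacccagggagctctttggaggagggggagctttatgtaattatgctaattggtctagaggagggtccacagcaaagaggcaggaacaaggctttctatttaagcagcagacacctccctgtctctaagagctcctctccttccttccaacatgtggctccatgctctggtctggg
The next longest run shared by the promoters of any other pair was 14 bases, between Ces1a and Ces1g. Promoter windows were at hand for 6 of the 8 Ces1 genes, with 2 for Ces1b, and those of Ces1d and Ces1f are not printed. The hexamer AGGTCA, a common nuclear receptor recognition unit, was looked for on both strands. It was in 0 of the 7 Ces1 windows and in 16.3% of 32851 promoter windows of the genome. The variant AGTTCA was in 3 of 7, against 14.0% of all windows. The 2 Ces1b windows overlap and hold the same site, so it was found once in Ces1b and once in Ces1a.

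The members overlap each other along the chromosome. Each overlaps between 11 and 26 of the others, with a median of 22. Their spans ran from 25042 to 76754 bases with a median of 33287, while the lengths over which the authors counted reads, recovered from the steps of the RPKM values, ran from 141 to 2466 bases with a median of 253. By start position they fell into 3 blocks. The first 12, as_7301 to intra_7312, start between 95577587 and 95601970, the next 11, intra_7313 to intra_7323, start within 95632493 to 95634964, and the last 4 start within 95645021 to 95649709. Values are in RPKM, reads per kilobase of transcript per M reads (M, 1e6), as deposited. The recovered length is the shortest that makes every value a whole number of reads. A multiple of it cannot be told apart, and then all reads of that member would be higher by the same factor.

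**Figure D1:**
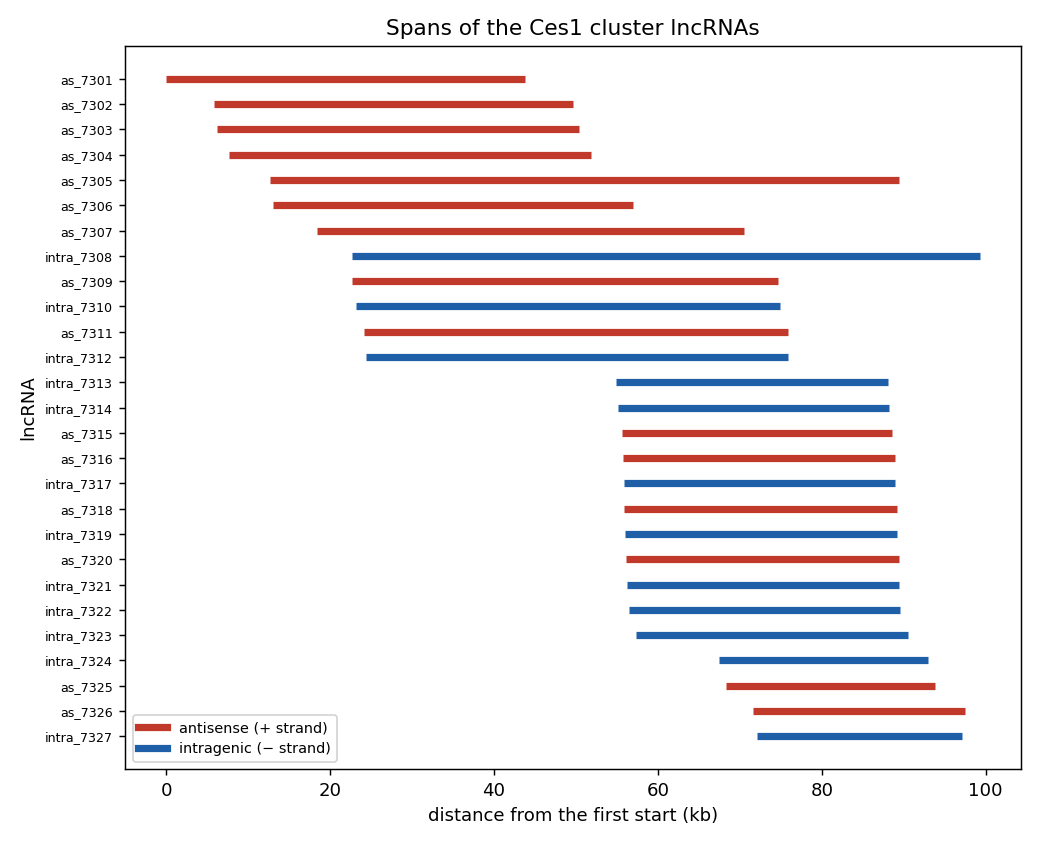
Spans of the 27 Ces1 cluster lncRNAs along chromosome 8, as distance in kb from the first start. Red bars are the 15 antisense lncRNAs on the plus strand and blue bars the 12 intragenic lncRNAs on the minus strand. The 11 bars of the middle block start almost together.

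The libraries differed in depth. The 4 stranded libraries held 25.2 to 27.8 M reads each, the female nuclear pools 22.9 to 32.0, the male nuclear pools 7.31 to 11.9, the nuclear PCN library 21.9 and the unstranded whole-liver library 40.3. LncRNAs took 0.794% to 0.918% of the reads in stranded libraries and 3.78% to 5.09% in unstranded ones. Markers of hepatocytes or of other liver cells could not be read from a table without gene symbols, so the tissue label was not checked. In bulk RNA, fewer cells of a type and less RNA per cell cannot be told apart, which holds for every level below.

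Antisense members were read in the unstranded libraries and in none of the stranded ones. All 15 had 0 reads in each of the 4 stranded whole-liver libraries, which held 104 M reads together. The same 15 had 19453 reads in the 8 unstranded libraries, and 14 of them were above 0 in all 8. Of all 1190 antisense lncRNAs in the table that were above 0 in all 8 unstranded libraries, 22.9% had 0 reads in all 4 stranded libraries, against 14 of 14 here. Without strand information, reads from an antisense RNA and reads from the gene opposite to it cannot be told apart. The strand setting of the authors' counting is not given in the sources used here and its part in these counts of 0, and in the folds below, was not tested.

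The 4 highest antisense members show the range. as_7315, at 95633156-95666192, had 0 RPKM in each of the 4 stranded libraries and 17.6 RPKM in the unstranded whole-liver library. as_7306, at 95590591-95634563, had 0 RPKM in each stranded library and 5.52 RPKM in the unstranded one. as_7303, at 95583784-95627943, had 0 and 1.75 RPKM in the same comparison. The 3 were thus listed at 0 in every stranded library at levels that ranked among the highest of the locus in nuclei. as_7311, at 95601697-95653498, had 0 RPKM in each stranded library and 0.440 RPKM in the unstranded whole-liver one.

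A count of 0 allows up to 3 reads in a library, so each difference is a lower bound that covers counting error alone. In TCPOBOP-treated whole liver at 3 h, as_7301 was at least 99.5-fold lower in the stranded library than in the unstranded one. The bound was 21.3-fold for as_7315, 17.7-fold for as_7307, 14.9-fold for as_7306 and 5.53-fold for as_7303. Over the 12 antisense members for which a bound could be set, it ran from 1.28-fold to 99.5-fold. With 0.1 RPKM added to each value, the 8 antisense members with at least 0.5 RPKM in either library were all at least 4-fold lower in the stranded one, as were 67.3% of all 614 antisense lncRNAs compared. By the bound from 3 reads, which does not rest on that constant, 6 of the 8 were, and as_7320 (1.70-fold) and as_7325 (1.91-fold) were not. The median log2 difference was -4.50 for the 8 and -2.81 for the 606 others with the constant, and -3.18 for the 8 at their bounds.

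Intragenic members, on the strand of the Ces1 genes, were read in both kinds of library. All 12 were above 0 in at least 1 stranded library, and 11 in all 4, with 2477 reads in the stranded libraries and 23048 in the unstranded ones. Of the 7 that were above 0 in all 8 unstranded libraries, 0 were at 0 in all 4 stranded ones, against 4.55% of the 110 such intragenic lncRNAs in the table.

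The 2 highest intragenic members were lower in the stranded library. intra_7313, at 95632493-95665647, had 12.5 RPKM in the stranded and 50.2 RPKM in the unstranded whole-liver library after TCPOBOP at 3 h, a ratio of 0.248. intra_7314, at 95632747-95665835, had 15.6 and 35.8 RPKM in the same libraries, a ratio of 0.436. Others starting within a few kilobases of them were higher in the stranded library. intra_7321, at 95633804-95666948, had 14.1 RPKM in the stranded and 0.50 RPKM in the unstranded library, a ratio of 28.2. intra_7322, at 95634042-95667133, had 13.4 and 0.768 RPKM, a ratio of 17.5. The unstranded values of intra_7321 and intra_7322 rest on only 5 and 6 reads. intra_7323, at 95634964-95668066, had 8.46 and 2.65 RPKM, a ratio of 3.19. Members of 1 class, on 1 strand and with nearly the same span therefore differed from each other in direction between the library types. intra_7310, at 95600770-95652458, lay between, with 2.99 RPKM in the stranded and 5.06 RPKM in the unstranded library.

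Some intragenic members were read with strand information alone. intra_7317 had 9.50 and 16.9 RPKM at 6 h and 12.5 and 16.8 RPKM at 3 h in the stranded TCPOBOP and PCN libraries. intra_7319 had 5.62 and 10.3 RPKM at 6 h and 6.24 and 8.64 RPKM at 3 h in those libraries. Both had 0 reads in all 8 unstranded libraries, which held 172 M reads. Of the 11 intragenic members above 0 in all 4 stranded libraries, 2 were thus at 0 in all 8 unstranded ones, against 7.84% of the 102 such lncRNAs in the table. The sources used here do not say how reads lying in members of both strands were counted without strand information. The part of that counting in these counts of 0, and in the folds below, was not tested. intra_7312 and intra_7327 were also at 0 in the unstranded whole-liver library. The stranded TCPOBOP library at 3 h was at least 26.1-fold higher for intra_7317, 20.4-fold for intra_7319, 14.6-fold for intra_7312 and 2.09-fold for intra_7327. Of 11 intragenic members with at least 0.5 RPKM in either library, 6 were at least 4-fold higher in the stranded one after adding 0.1 RPKM, against 25.3% of all 87 intragenic lncRNAs compared, and 1 was at least 4-fold lower, against 27.6%. One of the 6 was intra_7327, whose bound is under 4-fold, so 5 pass without the constant. The median log2 difference was 3.58 for the 11 and -1.07 for the 76 others with the constant, and 1.67 for the 11 with members at 0 set at their bounds. The 3.58 is the value of intra_7327 itself.

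**Figure D2:**
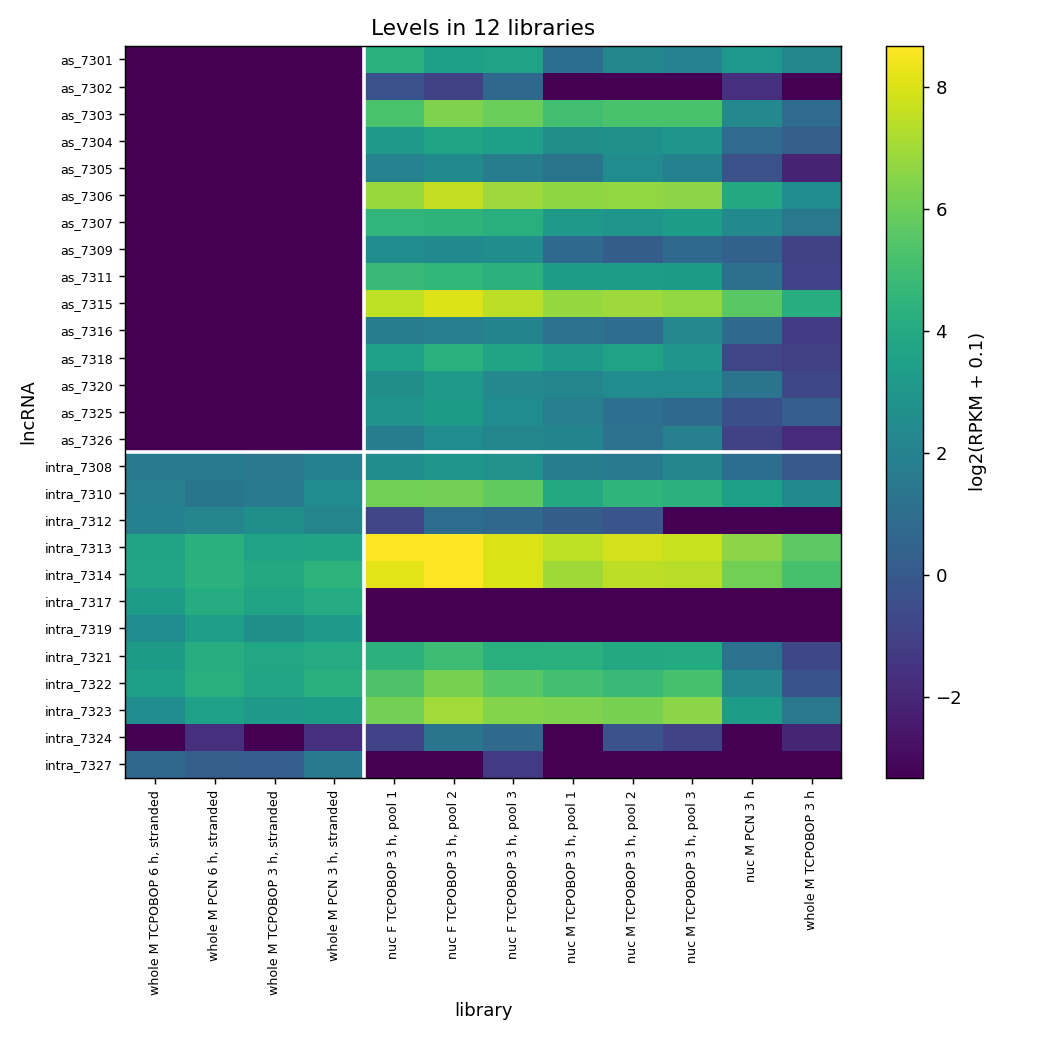
Levels of the 27 lncRNAs in the 12 libraries as log2(RPKM + 0.1), antisense members above and intragenic members below the horizontal line, stranded libraries left and unstranded ones right of the vertical line (M, male, F, female, nuc, nuclear). The 15 antisense members are at the lowest colour, 0 RPKM, in the 4 stranded libraries, and intra_7317 and intra_7319 are at 0 RPKM in the 8 unstranded ones.

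Reads summed over each class give the same picture per library. How a read that falls in more than one overlapping member was counted is not given in the sources used here. Such a read may be counted more than once in a sum or left out of it. Antisense members had 0 reads per M in each stranded library. They had 162 to 212 in the female nuclear pools, 88.9 to 100.5 in the male nuclear pools, 42.3 in the nuclear PCN library and 20.4 in the unstranded whole-liver library. Intragenic members had 18.2 and 28.5 reads per M in the stranded TCPOBOP and PCN libraries at 6 h, and 21.5 and 27.2 at 3 h. They had 171 to 259 reads per M in the female nuclear pools, 109 to 129 in the male nuclear pools, 45.7 in the nuclear PCN library and 22.7 in the unstranded whole-liver library. The intragenic sum in stranded whole liver was therefore close to that in unstranded whole liver, but different members made it up. intra_7313 and intra_7314 held 27.6% to 32.1% of the intragenic reads in the stranded libraries, against 87.5% in the unstranded whole-liver library (95% Wilson interval 85.2% to 89.5%). They held 68.4% to 75.1% in the female nuclear pools, 65.2% to 72.2% in the male nuclear pools and 82.9% in the nuclear PCN library.

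**Figure D3:**
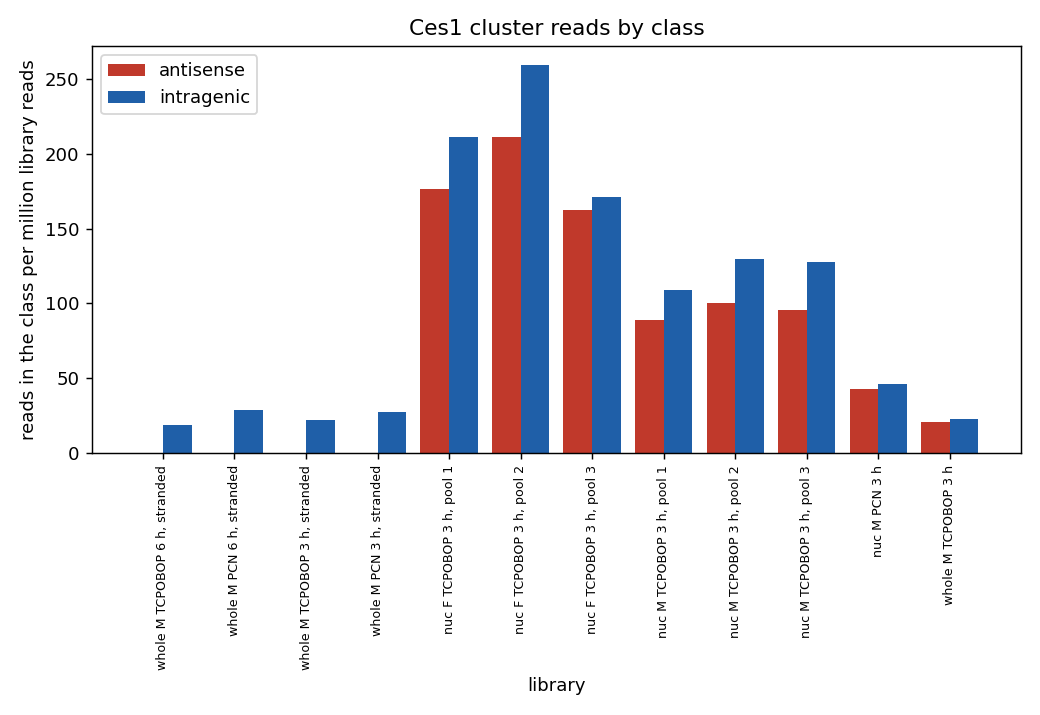
Reads in antisense (red) and intragenic (blue) members per M library reads, 1 pair of bars for each of the 12 libraries. Antisense bars are at 0 in the 4 stranded libraries, while in each of the 8 unstranded ones they stand slightly below the intragenic bars.

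Levels were higher in male liver nuclei than in whole male liver, both after TCPOBOP at 3 h and both without strand information. intra_7322 had 33.3, 27.5 and 36.0 RPKM in the nuclear pools, against 0.768 RPKM in the whole-liver library. intra_7321 had 19.3, 14.9 and 15.9 RPKM in the nuclear pools, against 0.50 RPKM in whole liver. intra_7323 had 81.4, 74.6 and 94.7 RPKM in the nuclear pools, against 2.65 RPKM in whole liver. For these 3, all pools stood far above the unstranded whole-liver library, at 42.0, 33.4 and 31.5 times its value on average. The whole-liver values rest on 6, 5 and 27 reads in that order, so the first 2 ratios carry a large counting error. The stranded whole-liver library after TCPOBOP at 3 h had 13.4, 14.1 and 8.46 RPKM of the same 3. The ratios therefore hold against the unstranded library alone.

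The ratio was lower for intra_7313 and intra_7314, the members with the highest levels, and for intra_7310. intra_7313 had 181, 229.6 and 204 RPKM in the nuclear pools, against 50.2 RPKM in whole liver, a ratio of 4.08. intra_7314 had 125, 177 and 168 RPKM in the nuclear pools, against 35.8 RPKM in whole liver, a ratio of 4.38. intra_7310 had 15.1, 23.1 and 21.0 RPKM in the nuclear pools, against 5.06 RPKM in whole liver, a ratio of 3.91. Again no nuclear pool was as low as whole liver.

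Antisense members spanned a similar range. as_7315 had 108, 120.2 and 104 RPKM in the nuclear pools, against 17.6 RPKM in whole liver, a ratio of 6.29. as_7306 had 99.0, 107 and 95.8 RPKM in the nuclear pools, against 5.52 RPKM in whole liver, a ratio of 18.3. as_7303 had 32.7, 37.8 and 37.1 RPKM in the nuclear pools, against 1.75 RPKM in whole liver, a ratio of 20.5. For these 3 the male pools lay close together, and each stood well above whole liver. as_7311 had 9.34, 9.70 and 9.13 RPKM in the nuclear pools, against 0.440 RPKM in whole liver, a ratio of 21.3 that rests on 8 whole-liver reads. as_7301 was an exception, with 1.94, 4.49 and 3.92 RPKM in the nuclear pools, against 4.71 RPKM in whole liver.

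Of 24 members tested in the fit of the 8 unstranded libraries, 19 were called higher in nuclei, 12 antisense and 7 intragenic, and 0 lower. Over all 6977 lncRNAs tested, 13.2% were called in either direction and 8.63% higher. The median log2 difference was 2.54 over the 24 and 0.22 over all. All male nuclear pools lay above the whole-liver library for 20 of the 24, against 38.2% of all. No reading is drawn from these counts and medians, since the locus was chosen with this contrast known. The whole-liver group is 1 library, assumed in the fit to vary like the nuclear pools, and it came from experiment G81 while the nuclear pools came from G95. Within G81, the nuclear library was made after PCN, and it exceeded the TCPOBOP whole-liver library for 21 of the 24, against 50.8% of all lncRNAs.

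On average over pools, levels in female nuclei exceeded those in male nuclei for each of the 24 members tested, by unequal amounts. intra_7310 had 69.2, 71.2 and 53.7 RPKM in the female pools, against 15.1, 23.1 and 21.0 RPKM in the male pools. as_7311 had 26.8, 24.8 and 20.5 RPKM in the female pools, against 9.34, 9.70 and 9.13 RPKM in the male pools. In both cases the female pools lay well clear of the male pools. The female mean was 64.7 ± 9.60 RPKM (SD, n = 3) for intra_7310, against a male mean of 19.8 ± 4.15 RPKM (SD, n = 3), a ratio of 3.27. For as_7311 the means were 24.0 ± 3.22 RPKM in females and 9.39 ± 0.288 RPKM in males (SD, n = 3 each), a ratio of 2.56.

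The members given next showed smaller ratios than intra_7310 and as_7311. intra_7313 had 398, 406 and 265 RPKM in the female pools, against 181, 229.6 and 204 RPKM in the male pools, a ratio of means of 1.74. intra_7314 had 292, 396 and 252 RPKM in the female pools, against 125, 177 and 168 RPKM in the male pools, a ratio of 2.00. as_7315 had 184, 263 and 179 RPKM in the female pools, against 108, 120.2 and 104 RPKM in the male pools, a ratio of 1.89. The groups did not overlap for these 3, and the second female pool was the highest each time. as_7306 had 111, 189 and 121 RPKM in the female pools, against 99.0, 107 and 95.8 RPKM in the male pools, a ratio of 1.40. as_7303 had 38.4, 82.0 and 61.7 RPKM in the female pools, against 32.7, 37.8 and 37.1 RPKM in the male pools, a ratio of 1.69. For both of these the lowest female pool was only just above the highest male pool.

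For 3 intragenic members of the middle block the difference was nearer to the spread between pools. intra_7322 had 40.2, 74.5 and 46.7 RPKM in the female pools, against 33.3, 27.5 and 36.0 RPKM in the male pools, with no overlap. intra_7321 had 20.5, 30.3 and 18.2 RPKM in the female pools, against 19.3, 14.9 and 15.9 RPKM in the male pools, with overlap. intra_7323 had 71.8, 128 and 87.0 RPKM in the female pools, against 81.4, 74.6 and 94.7 RPKM in the male pools, and these overlapped as well. Their ratios of means were 1.67, 1.38 and 1.14.

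Over the 23 members with a ratio, it ran from 1.04 for as_7305 to 4.14 for as_7301, with a median of 1.74. The median was 2.02 in the first block by start (11 ratios), 1.59 in the middle block (9 ratios) and 2.97 in the last block (3 ratios). Those 3 include intra_7324, with 2 reads over the male pools, and as_7325, with 15. as_7309, the member with the next highest ratio to as_7301, had 5.46 ± 0.417 RPKM in females and 1.43 ± 0.306 RPKM in males (SD, n = 3 each). as_7302 had 15 reads over the female pools and 0 over the male pools, whose libraries were shallower.

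Of 24 members tested, 10 were called in the limma fit, all of them higher in females, 7 antisense and 3 intragenic. Over all 5951 lncRNAs tested, 8.79% were called in either direction and 3.92% higher in females. The median log2 difference was 0.84 over the 24 and -0.09 over all. The female pools lay above all male pools for 15 of the 24, against 11.7% of all. Among the 10 called and among the 15 is as_7302, which passed the filter through the female pools alone. As before, nothing is read from these counts and medians. Sex and experiment (G86 for females, G95 for males) cannot be told apart. The count of calls fell to 4 without female pool 1, to 5 without female pool 2 and to 6 without female pool 3 or male pool 2, against 10 with all pools. The share called over all lncRNAs fell as well, to 2.88%, 4.34%, 3.53% and 6.66% in that order. With any female pool left out, 23 members were tested.

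**Figure D4:**
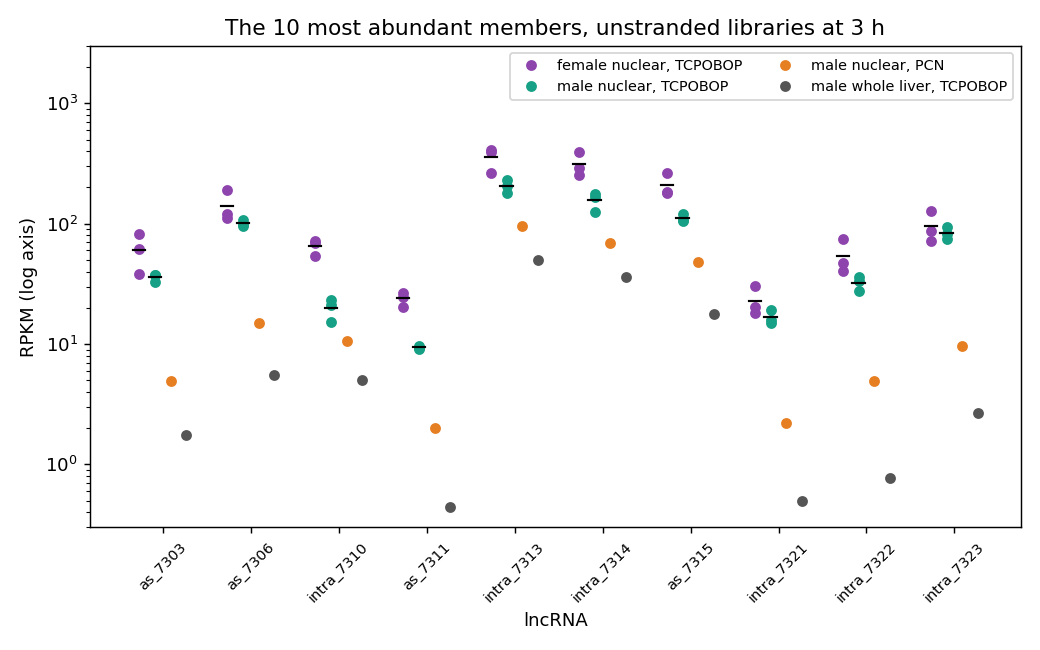
RPKM (log axis) of the 10 members with the highest mean level, in unstranded libraries at 3 h, 1 point per library. Bars mark the mean of 3 female and 3 male nuclear pools. For each of the 10 the male nuclear TCPOBOP pools stand above the male nuclear PCN library, which stands above whole liver.

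In male nuclei at 3 h, TCPOBOP pools were above the PCN library for most members. as_7303 had 32.7, 37.8 and 37.1 RPKM after TCPOBOP, against 4.94 RPKM after PCN, a ratio of 7.26. as_7306 had 99.0, 107 and 95.8 RPKM after TCPOBOP, against 14.9 RPKM after PCN, a ratio of 6.75. intra_7323 had 81.4, 74.6 and 94.7 RPKM after TCPOBOP, against 9.55 RPKM after PCN, a ratio of 8.75. For these 3 members every TCPOBOP pool was several times the PCN value. The PCN library had 2.21 RPKM of intra_7321 and 4.93 RPKM of intra_7322, and the TCPOBOP pools given above averaged 7.57 and 6.54 times as much. as_7311 had 2.02 RPKM after PCN, with a TCPOBOP mean 4.65 times as high.

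By ratio, the same pools were nearer to PCN for intra_7313, intra_7314, as_7315 and intra_7310 than for the members above. intra_7313 had 205 ± 24.1 RPKM after TCPOBOP (SD, n = 3), against 95.4 RPKM after PCN, a ratio of 2.15. intra_7314 had 157 ± 27.6 RPKM after TCPOBOP (SD, n = 3), against 68.6 RPKM after PCN, a ratio of 2.29. as_7315 had 111 ± 8.41 RPKM after TCPOBOP (SD, n = 3), against 48.5 RPKM after PCN, a ratio of 2.28. In each of these the lowest TCPOBOP pool still exceeded PCN. intra_7310 had 19.8 ± 4.15 RPKM after TCPOBOP (SD, n = 3), against 10.7 RPKM after PCN, a ratio of 1.85. The ratio was highest for as_7318, with 8.58, 11.8 and 7.49 RPKM after TCPOBOP, against 0.464 RPKM after PCN, a ratio of 20.0. Its PCN value rests on 4 reads. as_7301 went the other way, with 1.94, 4.49 and 3.92 RPKM after TCPOBOP, against 8.19 RPKM after PCN.

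Of 24 members tested, 9 were called, all of them higher after TCPOBOP, 6 antisense and 3 intragenic. Over all 6977 lncRNAs tested, 8.1% were called in either direction and 4.67% higher after TCPOBOP. The median log2 difference was 1.74 over the 24 and 0.18 over all. All TCPOBOP pools lay above PCN for 19 of the 24, against 36.8% of all. Nothing is read from these counts and medians either. The PCN group is 1 library of 2 livers from experiment G81, so agonist and experiment cannot be told apart. With a filter of a mean of at least 1 RPKM in place of the one used, 15 members were called, as were 35.0% of all lncRNAs tested.

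The 4 stranded whole-liver libraries compare the agonists and the times within 1 experiment, with the strand information that the nuclear libraries lack. The locus was chosen with earlier results of these data known, so these 2 comparisons cannot be taken as free of that choice. The 15 antisense members were at 0 in all 4, and the 12 intragenic ones were all tested. No member was called for agonist or for time.

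Values after TCPOBOP lay below those after PCN for most intragenic members, by amounts that did not pass the test. intra_7314 had 13.5 RPKM after TCPOBOP and 20.7 RPKM after PCN at 6 h, and 15.6 and 21.7 RPKM at 3 h. intra_7322 had 11.3 RPKM after TCPOBOP and 18.8 RPKM after PCN at 6 h, and 13.4 and 19.5 RPKM at 3 h. intra_7321 had 9.27 RPKM after TCPOBOP and 17.6 RPKM after PCN at 6 h, and 14.1 and 16.3 RPKM at 3 h. In these 3, as in intra_7317 and intra_7319 above, both TCPOBOP libraries lay below both PCN libraries. intra_7323 had 5.68 RPKM after TCPOBOP and 11.5 RPKM after PCN at 6 h, and 8.46 and 9.38 RPKM at 3 h. intra_7313 had 12.6 RPKM after TCPOBOP and 19.6 RPKM after PCN at 6 h, and 12.5 and 12.9 RPKM at 3 h, so that its agonist gap lay at 6 h. intra_7310 had 3.59 RPKM after TCPOBOP and 2.45 RPKM after PCN at 6 h, and 2.99 and 5.39 RPKM at 3 h, with the order turned round between the times.

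In the additive limma fit of agonist and time, the log2 difference of TCPOBOP from PCN was -0.54 (SE 0.15) for intra_7314, -0.63 (SE 0.16) for intra_7322, -0.56 (SE 0.26) for intra_7321, -0.57 (SE 0.30) for intra_7323 and -0.34 (SE 0.23) for intra_7313. Its median was -0.55 over the 12 members, against 0.04 over all 2270 lncRNAs tested. The 12 overlap each other along the chromosome and share the same single libraries, so they are not independent of each other. TCPOBOP was below PCN at both times for 8 of 12, against 23.8% of all. The 8 include intra_7324, with 0 reads in both TCPOBOP libraries and 1 read in each PCN library. That member passed the filter through the PCN libraries alone. Called were 0 of 12 members and 0% of all lncRNAs. The lowest Benjamini-Hochberg adjusted p from limma was 0.591, among the members and among all alike, while 162 lncRNAs, 4 of them members, had an unadjusted p under 0.05. Among the members the lowest value was that of intra_7324, which is also among the 4. With limma-voom on the recovered reads, 2 lncRNAs were called and 0 members. The fit has 1 residual degree of freedom, so a p over the threshold does not show that the agonists act alike.

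Between 6 h and 3 h the members' values differed in both directions. intra_7313 was the one member higher at 6 h than at 3 h with both agonists, by a narrow margin after TCPOBOP. The log2 difference of 6 h from 3 h was 0.31 (SE 0.23) for intra_7313, -0.14 (SE 0.15) for intra_7314 and -0.15 (SE 0.16) for intra_7322. The median was -0.14 over the 12 members and -0.16 over all. Called were 0 of 12 members and 0% of all lncRNAs, with a lowest limma adjusted p of 0.637 among the members and 0.328 among all. At an unadjusted p under 0.05 there were 273 lncRNAs and 0 members, and limma-voom called 0. Time after injection and clock hour cannot be told apart.

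**Figure D5:**
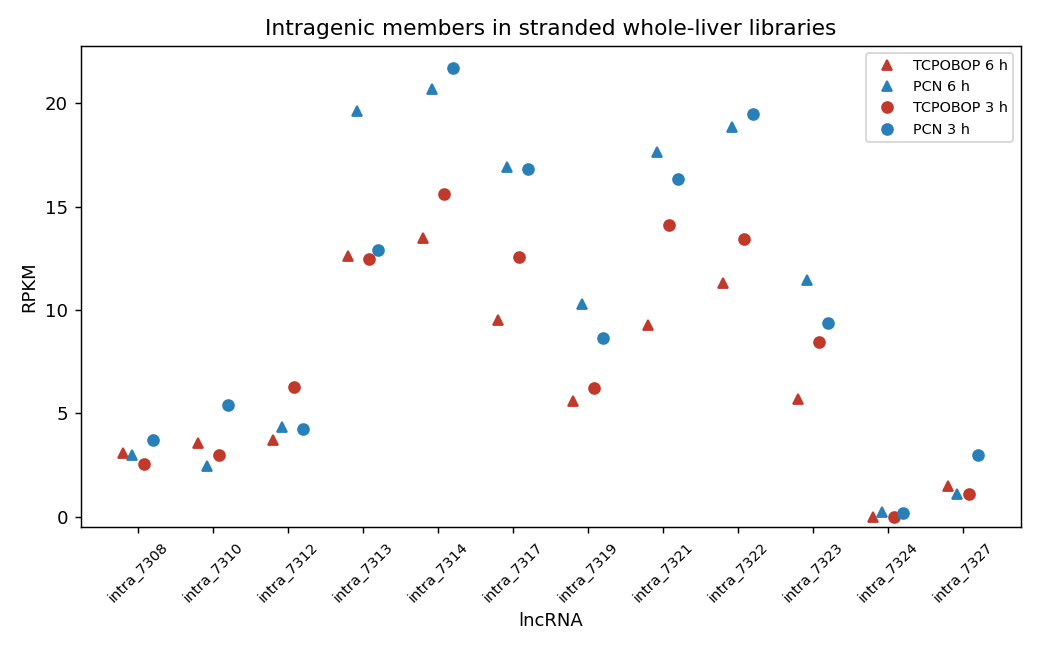
RPKM of the 12 intragenic members in the 4 stranded whole-liver libraries, 1 point each, TCPOBOP in red and PCN in blue, triangles at 6 h and circles at 3 h. Red points lie below blue ones of the same shape at both times for 8 of the 12, and intra_7310 changes order between 6 h and 3 h.

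RPKM is per length, so members can also be ranked against each other. The nuclear values lack strand information, so the value of an antisense member may hold reads of the gene opposite to it. Reads of intragenic members were not told apart here from reads of a Ces1 gene on the same strand. In female nuclei the order was intra_7313 (356 ± 79.1 RPKM), intra_7314 (313 ± 74.4), as_7315 (209 ± 47.4), as_7306 (141 ± 42.2) and intra_7323 (95.5 ± 28.9), each a mean ± SD over 3 pools. The ranges of neighbours in that order overlapped over the pools, but within each female pool the order held. In male nuclei the same 5 came in the same order, at 205 ± 24.1, 157 ± 27.6, 111 ± 8.41, 101 ± 5.89 and 83.6 ± 10.2 RPKM (SD, n = 3 each). There, only the ranges of as_7315 and as_7306 overlapped as neighbours, and within each male pool the order held as well. Next in male nuclei came as_7303 (35.9 ± 2.75 RPKM), intra_7322 (32.2 ± 4.33), intra_7310 (19.8 ± 4.15), intra_7321 (16.7 ± 2.28) and as_7311 (9.39 ± 0.288). Of these, as_7303 and intra_7322 overlapped, as did intra_7310 and intra_7321, and both pairs stood in the reverse order in male pool 1. In female nuclei intra_7310 stood sixth, at 64.7 ± 9.60 RPKM, above as_7303 at 60.7 ± 21.9 RPKM and intra_7322 at 53.8 ± 18.2 RPKM. But these 3 overlapped, and their order differed between pools.

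The members outside these 10 had lower means over the 12 libraries, though not in each library: intra_7317 exceeded intra_7310 in the stranded ones, and as_7301 exceeded as_7303 in the nuclear PCN library. In the female pools the other antisense members averaged from 0.891 ± 0.588 RPKM for as_7302 to 21.5 ± 2.48 RPKM for as_7307 (SD, n = 3 each). In the male pools they ran from 0 RPKM for as_7302 to 9.30 ± 2.26 RPKM for as_7318 (SD, n = 3). intra_7308 had 6.74 ± 1.13 RPKM in female pools and 3.52 ± 0.651 RPKM in male pools (SD, n = 3 each), near its 2.55 to 3.73 RPKM in the stranded libraries. intra_7312 had 1.26 ± 0.704 RPKM in female pools and 0.621 ± 0.557 RPKM in male pools (SD, n = 3 each), below its 3.71 to 6.26 RPKM in the stranded libraries. intra_7324 rested on 2 stranded and 26 unstranded reads, and intra_7327 on 25 stranded reads and 1 unstranded read, too few to rank.

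Beyond the last member, 4 further lncRNAs lay within 500 kb, and none lay within 500 kb before the first. The nearest, intergenic ncRNA_inter_chr8_7328, starts 10151 bases on and had 0.345 ± 0.262 RPKM in female pools and 0.0405 ± 0.0702 RPKM in male pools (SD, n = 3 each). The others included 1 antisense lncRNA, ncRNA_as_chr8_7331 at 95780407-95803569, with 2.36 ± 0.239 RPKM in female pools and 6.49 ± 1.29 RPKM in male pools (SD, n = 3 each). It had 5 reads in the stranded libraries and 12793 in the unstranded ones, and its order of the sexes is opposite to that of the members. ncRNA_inter_chr8_7330 had 0.655 ± 0.221 RPKM in female pools and 3.57 ± 0.883 RPKM in male pools (SD, n = 3 each), also with males higher.

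Elsewhere in the genome, 1510 lncRNAs with a mean of at least 0.5 RPKM were compared with the members' median profile over the 12 libraries, by the root mean square of the difference of centred log2(RPKM + 0.1) values. The closest was the antisense ncRNA_as_chr17_13884, at chr17:35400984-35610118, with a difference of 0.35, against a median of 1.41 over all compared. It had 3.77 ± 0.592 RPKM in female pools and 2.05 ± 0.247 RPKM in male pools (SD, n = 3 each), 1.09 RPKM in the nuclear PCN library and 0.508 RPKM in unstranded whole liver. The next were ncRNA_as_chr17_13795 (0.39), ncRNA_inter_chr1_172 (0.43), ncRNA_as_chr9_7758 (0.45) and ncRNA_as_chr10_9005 (0.49). Each of these 5 was at or near 0 in the stranded libraries and higher in nuclei than in whole liver. The profile was the median over 26 members of both classes. Most intragenic members were not near 0 in the stranded libraries, where their mean levels had a median of 8.22 RPKM.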

How the data were processed

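The authors deposited one table of RPKM values (reads per kilobase of transcript per M reads, per the file headers) for 15558 lncRNAs. Reads had been aligned with TopHat2 to mm9, per the submitters' processing notes; the sources used here do not give the counting tool or its strand setting. Of 25 value columns, 12 matched a library's labels and 13 were not used here. Whole reads were recovered from the RPKM steps: 100% of 89242 values above 0 were whole within 1e-06 of a read. Groups were compared by limma-trend (limma 3.58.1, R 4.3.3) of log2(RPKM + 0.1), fitted over all lncRNAs with at least 0.1 RPKM in 3 pools (sex), in 3 of the 8 unstranded libraries or in a single-library group (nuclear contrasts), or in 2 stranded libraries. A call is a Benjamini-Hochberg adjusted p under 0.05, adjusted over the whole table. Folds on this scale understate changes of low lncRNAs. The fit was tested on simulated data. Nothing says that pools differ in more than the animals pooled, so p-values of the fits with replicate pools measure the spread between pools. The stranded fit has no replicates. Its 1 residual degree of freedom is the change of the agonist difference between the times. Intervals and floors of 3 reads cover counting error only.

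Pool numbers are shared by the sexes, but same-numbered pools did not deviate together (correlations of -0.02, -0.07 and -0.00), so the main fit has no block. Named with full values were the 10 members with the highest mean RPKM, which include the 3 named in the selection rule; none was added by a stranded call. Members and lists were chosen with earlier results of these data known. Alternatives changed the constant, the filter, the scaling, the tool and the pools used. Sequences of the lncRNAs themselves were not used here, since the reference genome supplied was of another build.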

Additional observations from a re-analysis of the deposited data

Results flagged for a closer look

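No group holds 4 to 10 libraries, so no single library could be singled out as far from its group. The contrast of TCPOBOP with PCN had opposite signs in different settings for 6 named members, and these differences were not tested. For ncRNA_intra_chr8_7310 the log2 difference in stranded whole liver was 0.54 at 6 h and -0.83 at 3 h, on 4 single libraries.

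The other 5 were higher after TCPOBOP in male nuclei at 3 h and lower after TCPOBOP in stranded whole liver at both times. The log2 difference was 1.10 in nuclei for ncRNA_intra_chr8_7313, against -0.63 at 6 h and -0.05 at 3 h in stranded whole liver. It was 1.18 for ncRNA_intra_chr8_7314, against -0.62 and -0.47. It was 2.86 for ncRNA_intra_chr8_7321, against -0.92 and -0.21. It was 2.68 for ncRNA_intra_chr8_7322, against -0.73 and -0.53. It was 3.11 for ncRNA_intra_chr8_7323, against -1.0 and -0.15. Each value pair after the first is at 6 h and then at 3 h. The nuclear contrast sets experiment G95 against G81 without strand information, while the stranded one lies within G81. Compartment, experiment and strand information cannot be told apart here.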

How the results depend on the processing

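The count of members called between the sexes (10) ranged from 4 to 7 when 1 pool was left out, and was 8 with a replicate block on the pool number, which the data do not pair. The share called over all lncRNAs was 2.88% to 6.66% with 1 pool left out and 4.82% with the block. Over all lncRNAs the block gave 287 calls, against 523, and the calls ranged from 159 to 778 over all alternatives. For TCPOBOP against PCN in nuclei they ranged from 279 to 821, against 565, and for nuclei against whole liver from 521 to 1746, against 923. Leaving out 1 pool gave 6 to 10 members called for TCPOBOP against PCN in nuclei (9 with all pools) and 18 to 19 for nuclei against whole liver (19 with all pools). The shares called over all lncRNAs then ran from 4.14% to 7.17% and from 8.80% to 12.9%. With a mean of at least 1 RPKM, 15 members were called for TCPOBOP against PCN in nuclei, as were 35.0% of all lncRNAs tested. The counts of 0 for agonist and time in stranded whole liver held under the 6 alternatives run for each, although the filter of a mean of at least 1 RPKM called 17 and 27 of 251 lncRNAs.

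The median log2 difference of stranded from unstranded whole liver was -7.76 (constant 0.01), -1.67 (constant 1) and -2.44 (library medians set equal) for antisense members, against -4.50 as reported, and 4.11, 1.37 and 5.64 for intragenic ones, against 3.58. The sign held in each. Among single members, ncRNA_intra_chr8_7323 between the sexes was at -0.0736 without female replicate 2 and ranged up to 0.342 without another pool. With library medians set equal, the log2 difference of 6 h from 3 h was 0.0201 for ncRNA_intra_chr8_7314, 0.0117 for ncRNA_intra_chr8_7322 and 0.0190 for ncRNA_intra_chr8_7323. The cause was not tested. With equal medians the median log2 difference of all lncRNAs was 0.05 between the sexes, against -0.09, -0.04 for TCPOBOP against PCN in nuclei, against 0.18, and 0.02 for nuclei against whole liver, against 0.22; 12, 9 and 19 members were then called, all higher. Of all lncRNAs, 8.82%, 6.74% and 11.6% were called in those fits, in the same order. Depth limits the members with few reads: male pools held 7.31 to 11.9 M reads.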
